A study of Homo sapiens with 12 samples.

Results

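The iron uptake, storage and handling genes described here are TFRC, STEAP3, SLC11A2, SLC11A1, FTH1, FTL, NCOA4, SLC40A1, ACO1 and IREB2, chosen by gene symbol as every probe of the array that the platform annotation assigns to one of these 10 genes. Of the 10 genes, 8 had a named probe, among 16922 named genes on the array, and 10 of the 24526 probes belonged to them. FTH1, the ferritin heavy chain gene, and IREB2, the gene of iron regulatory protein 2, had no probe under their symbols and were not analysed here. STEAP3 had 3 probes and each of the other measured genes had 1. Of the 10 probes, 7 were detected on all 12 arrays, 1 for each of 7 genes, and the other 3 probes were detected on none.

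The arrays were Illumina BeadChips hybridised with labelled RNA of U937, an established human myeloid leukaemia line. The 3 groups were control U937 cells, U937 cells given EX527 for 24 h and U937 cells given MC2494 for 24 h, with 4 arrays each. EX527 is known as an inhibitor of the sirtuin SIRT1, and the series title presents MC2494 as a sirtuin inhibitor. The labels give no dose, and neither a vehicle nor a time for the control cells. They do not say whether replicates were grown as separate cultures, so p-values measure only the spread between these arrays, which may be technical.

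Cells take up iron mainly as transferrin, which binds the transferrin receptor TFRC and is carried into endosomes, where STEAP3 reduces the released iron and SLC11A2 moves it into the cytosol. Iron that is not used is stored in ferritin, built of FTL and FTH1 chains, and leaves the cell through ferroportin, encoded by SLC40A1. The iron regulatory proteins ACO1 and IREB2 bind iron-responsive elements, short RNA hairpins, when iron is low: in the end of the TFRC transcript they protect it from decay, and at the start of the ferritin and ferroportin transcripts they block translation. Transcript levels of FTL and SLC40A1 therefore leave out the step at which iron is best known to act on them.

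Sequence windows around annotated transcript starts were available for 9 of the 10 genes, from RefSeq on GRCh38.p14. The start of the FTL transcript is shown because it carries the hairpin loop to which the iron regulatory proteins bind. The stretch lies at chr19:48965329-48965358 on the plus strand, and the capitals mark the loop letters CAGTGN, which begin at base 39 of the transcript.

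FTL: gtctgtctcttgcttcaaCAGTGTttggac

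The loop CAGTGN with the bulged C of the hairpin 5 bases ahead of it was searched on the sense strand in the first 50 bases after each start, and 1.67% of 35116 windows held it. Among the 14 windows of the measured and unmeasured member genes only that of FTL did. The search did not reach later parts of a transcript, such as the end of TFRC, and FTH1 had no window. A window without the loop therefore does not show that the transcript lacks an iron-responsive element. CAGTGN alone, which every match with the bulged C contains, was in 6.36% of all windows and in 3 of the 14, those of FTL, SLC11A1 and 1 of the NCOA4 starts. TFRC had the largest difference from control among the member probes with both compounds, so the 250 bases before its start are shown, from chr3:196082091-196082340 on the minus strand, with the core of a hypoxia response element, ACGTG, in capitals.

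TFRC: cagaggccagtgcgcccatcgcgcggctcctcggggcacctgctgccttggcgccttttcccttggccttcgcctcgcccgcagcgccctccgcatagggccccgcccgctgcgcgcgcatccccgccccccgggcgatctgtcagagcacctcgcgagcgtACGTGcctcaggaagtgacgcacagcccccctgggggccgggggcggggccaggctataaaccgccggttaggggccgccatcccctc

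Searched on both strands over the 250 bases before the start, ACGTG was in 18.5% of all windows and in 2 of the 14 member windows, those of TFRC and FTL. The antioxidant response core TGACNNNGC was in 10.9% of all windows and the E-box CACGTG, which contains ACGTG, in 6.34%, and neither was in any of the 14 member windows.

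Between 12231 and 13030 probes were detected per array. The mean intensity over all probes before normalization was 779 ± 14.5 (SD, n = 4) in control arrays, 736 ± 32.3 with EX527 and 663 ± 31.0 with MC2494. After quantile normalization, which gives all arrays 1 distribution, levels are log2 signals and each difference is relative to the other probes. Of 11 myeloid marker genes with a named probe, 10 were detected and MPO was not; their summed intensity was 16273 to 17458 in control arrays, 13405 to 15169 with EX527 and 14207 to 16138 with MC2494. Of 11 erythroid markers 3 were detected, with HBB, HBA2, ALAS2 and SLC4A1 among those that were not. The sum of the 3 was 326 to 377, 322 to 370 and 274 to 311. It includes TFR2, a gene also reported below. The lymphocyte markers, of which 3 of 7 were detected and CD2, CD3D, CD3E and PAX5 were not, summed to 968 to 1165 in control arrays, 471 to 532 with EX527 and 461 to 527 with MC2494. The part of these marker levels in the results below was not tested.

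TFRC, the transferrin receptor, was 2.2-fold higher with MC2494 and 2.08-fold higher with EX527 than in control cells. Its probe read intensities of 5888, 5860.3, 5914 and 6098 on the control arrays, 10710.4, 10909, 12381 and 10519 on the EX527 arrays and 10134, 9754, 11111 and 10486 on the MC2494 arrays. Every treated array lay above every control array before any normalization, and the EX527 and MC2494 arrays overlapped. The normalized log2 levels were 12.33, 12.33, 12.40 and 12.43 in control, 13.43, 13.46, 13.49 and 13.34 with EX527 and 13.55, 13.39, 13.55 and 13.56 with MC2494. MC2494 raised the log2 level by 1.14 ± 0.06 (SE) over control (limma, adjusted p = 4.1e-10) and EX527 by 1.06 ± 0.06 (adjusted p = 8.1e-09). Between the compounds the log2 difference was 0.08 ± 0.06 for MC2494 over EX527, with a 95% interval of -0.04 to 0.21 (limma adjusted p = 0.23), so no difference passed the test and a difference of up to 0.21 is within the interval. Replicate 2 of MC2494 read 13.39 against 13.55 to 13.56 on the other MC2494 arrays, and without it the log2 difference from control was 1.18. With arrays scaled by their medians in place of quantile normalization, the log2 differences from control were 0.81 for MC2494 and 0.87 for EX527, and the difference between the compounds was -0.06 (limma adjusted p = 0.51).

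SLC11A2, also called DMT1, carries ferrous iron across the endosomal membrane and the plasma membrane. Its log2 levels were 8.85, 8.91, 8.94 and 8.90 on the control arrays, 9.41, 9.46, 9.43 and 9.48 on the EX527 arrays and 9.92, 9.57, 9.91 and 9.89 on the MC2494 arrays. The 3 groups of normalized levels did not overlap, in the order control, EX527, MC2494. Before normalization both treated groups were above control, while the MC2494 intensities of 783 to 986 overlapped those of EX527, 742 to 815. The level was 1.9-fold higher with MC2494 than in control, a log2 difference of 0.92 ± 0.07 (limma, adjusted p = 4.3e-08), and 1.46-fold higher with EX527, a log2 difference of 0.54 ± 0.07 (adjusted p = 2.6e-05). MC2494 exceeded EX527 by 0.38 ± 0.07 on the log2 scale (limma, adjusted p = 0.00041), which was 0.25 with median scaling (adjusted p = 0.0097) and 0.21 with no scaling (adjusted p = 0.037). Replicate 2 of MC2494 was again low for its group, and without it the log2 difference from control was 1.01. Over replicates 1 and 2 alone the difference between the compounds was 0.31 (limma, adjusted p = 0.064), which did not pass.

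STEAP3, the endosomal ferrireductase, was lower with both compounds at the 1 probe that was detected. Its log2 levels were 10.69, 10.72, 10.82 and 10.88 in control, 10.51, 10.48, 10.45 and 10.57 with EX527 and 10.45, 10.27, 10.66 and 10.61 with MC2494. All treated arrays were below all control arrays, by a margin as small as the step from 10.66 to 10.69. STEAP3 fell by 0.28 ± 0.08 on the log2 scale with MC2494 (limma, adjusted p = 0.006) and by 0.27 ± 0.08 with EX527 (adjusted p = 0.0096), 1.21-fold in each case. The difference between the compounds was -0.00 ± 0.08, with a 95% interval of -0.18 to 0.17 (limma adjusted p = 0.96). With median scaling the log2 difference of MC2494 from control was -0.53, and over replicates 1 and 2 alone that of EX527 was -0.21 (limma, adjusted p = 0.099). The other STEAP3 probes, 1 for the same transcript and 1 for another, were not well above background on any array.

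SLC11A1, also called NRAMP1, is the metal transporter of phagosomes in macrophages. Its intensity was 57.4 to 68.7 over the 12 arrays and it was detected on none, so no fold is given.

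**Figure D1:**
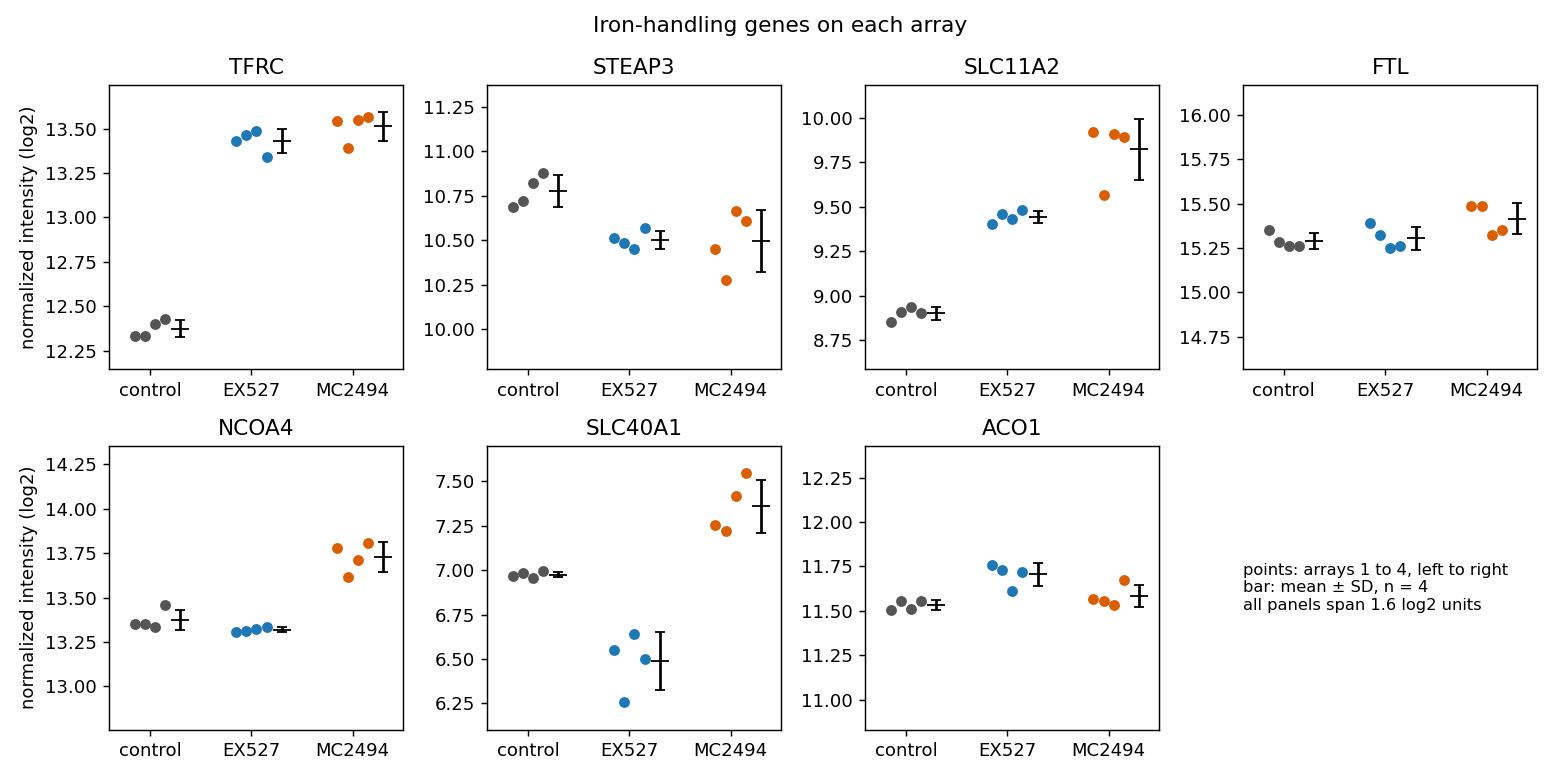
Normalized log2 signal of the 7 detected member probes on each array, with points for replicates 1 to 4 from left to right, grouped as control, EX527 and MC2494, and bars for the mean ± SD of 4 arrays; every panel spans the same number of log2 units. TFRC and SLC11A2 lie above control in all treated arrays, SLC40A1 lies below control with EX527 and above it with MC2494, and the FTL groups overlap.

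FTL, the light chain of ferritin, was among the brightest probes of the array and did not pass the test in any comparison. Its intensities were 41722, 39457, 46219.9 and 45066 in control, 38540 to 40809 on 3 of the EX527 arrays with the lowest at 36721, and 41035, 42274, 42105 and 40558 with MC2494. The normalized log2 levels were 15.35, 15.29, 15.26 and 15.26 in control, 15.39, 15.33, 15.25 and 15.26 with EX527 and 15.49, 15.49, 15.33 and 15.35 with MC2494. The groups overlapped in all 3 comparisons. The log2 difference was 0.12 ± 0.06 for MC2494 against control, with a 95% interval of 0.00 to 0.25 (limma adjusted p = 0.067), and 0.02 ± 0.06 for EX527 against control (adjusted p = 0.83). MC2494 against EX527 gave 0.11 ± 0.06 with an interval of -0.02 to 0.23 (limma adjusted p = 0.12). FTL ranked 1 to 14 from the brightest among all probes of an array and read 79.6% to 100% of the array's highest intensity, and what signals so near the top of the range do to its differences was not tested. MC2494 against control passed the threshold in 6 of 25 alternative settings, 1 of them without replicate 3 of MC2494 (log2 difference 0.16, limma adjusted p = 0.037). With median scaling and with no scaling its sign turned, to -0.05 in each case, and it did not pass (limma adjusted p = 0.57 and 0.54). EX527 against control was -0.20 with median scaling (limma, adjusted p = 0.036) and -0.16 with no scaling (adjusted p = 0.088).

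NCOA4 is the cargo receptor that delivers ferritin to autophagosomes, so that its iron can be released. Its log2 levels were 13.35, 13.35, 13.34 and 13.46 in control, 13.31, 13.31, 13.32 and 13.34 with EX527 and 13.78, 13.61, 13.71 and 13.81 with MC2494. The MC2494 arrays stood above all others, while the EX527 and control arrays met at 13.34. MC2494 was higher than control by 0.36 ± 0.05 on the log2 scale, or 1.28-fold (limma, adjusted p = 4.3e-05), and higher than EX527 by 0.41 ± 0.05, or 1.33-fold (adjusted p = 1.7e-05). EX527 against control gave -0.05 ± 0.05 (limma adjusted p = 0.43). The difference of MC2494 from control rests on the scaling: the intensities before normalization were 11831, 11807, 11313 and 12608 in control and 11724, 11239, 12762 and 12478 with MC2494, which overlap. With median scaling that log2 difference was 0.02 (limma, adjusted p = 0.78), and EX527 against control was -0.25 (adjusted p = 0.0075). The higher level with MC2494 than with EX527 passed the threshold in all 25 alternatives, with log2 differences from 0.23 to 0.45.

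The scaling touches NCOA4, FTL, TFRC and ACO1 together, since all 4 are among the brightest 10% of the detected probes. The median log2 difference of MC2494 from control over those 1318 bright probes was 0.02 with quantile normalization and -0.28 with median scaling. For EX527 against control these medians were -0.02 and -0.19. No result in these files settles which scaling is nearer to the RNA content of the cells.

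**Figure D2:**
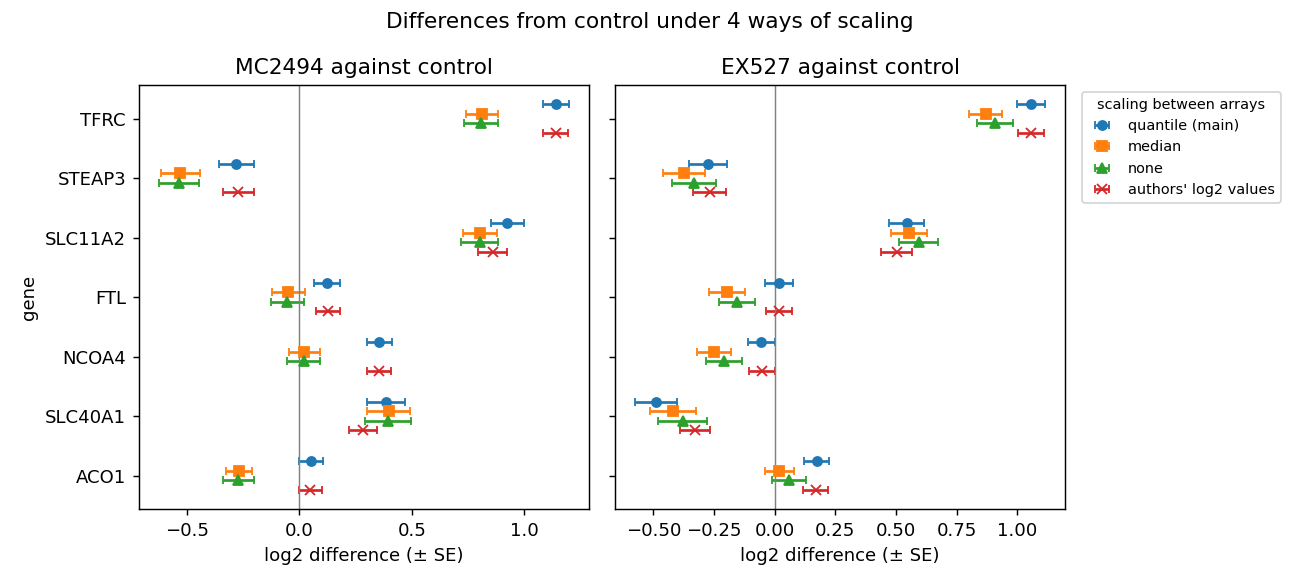
Log2 difference ± SE of each detected member probe for MC2494 and for EX527 against control under quantile normalization, median scaling, no scaling between arrays and with the authors' deposited log2 values, each in its own colour and marker. TFRC and SLC11A2 stay above control under each scaling, while NCOA4 with MC2494 moves from 0.36 to 0.02 and ACO1 with MC2494 from 0.05 to -0.27.

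SLC40A1, or ferroportin, the one known exporter of ferrous iron in mammals, moved in opposite directions with the compounds. Its log2 levels were 6.97, 6.98, 6.96 and 6.99 in control, 6.55, 6.26, 6.64 and 6.50 with EX527 and 7.26, 7.22, 7.42 and 7.55 with MC2494. The 3 groups did not overlap, and the 4 control arrays lay between 6.96 and 6.99. The intensities before normalization were low, 166 to 181 in control, 131 to 161 with EX527 and 186 to 225 with MC2494, and kept the same order without overlap. EX527 was 1.4-fold lower than control, a log2 difference of -0.49 ± 0.09 (limma, adjusted p = 0.00026). MC2494 was 1.31-fold higher than control, a log2 difference of 0.38 ± 0.09 (limma, adjusted p = 0.001). Between the compounds SLC40A1 differed by 0.87 ± 0.09 on the log2 scale, or 1.83-fold (limma, adjusted p = 7.5e-07), the largest difference between the compounds among the 7 member probes. In all 25 alternatives the lower level with EX527 and the difference between the compounds passed the threshold. Over replicates 1 and 2 alone MC2494 against control was 0.26 (limma, adjusted p = 0.063), and over replicates 3 and 4 alone it was 0.50.

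ACO1, which is iron regulatory protein 1 when it lacks its iron-sulphur cluster and cytosolic aconitase when it carries it, differed little. Its log2 levels were 11.50, 11.55, 11.51 and 11.56 in control, 11.76, 11.73, 11.61 and 11.72 with EX527 and 11.57, 11.55, 11.53 and 11.67 with MC2494. The EX527 arrays were above the control arrays, and the MC2494 arrays overlapped both groups. EX527 was higher than control by 0.17 ± 0.05 on the log2 scale, or 1.13-fold (limma, adjusted p = 0.012), while MC2494 against control gave 0.05 ± 0.05 (adjusted p = 0.4). MC2494 against EX527 gave -0.12 ± 0.05, with a 95% interval of -0.24 to -0.01 (limma adjusted p = 0.057). With median scaling EX527 against control was 0.02 (limma, adjusted p = 0.79) and MC2494 was lower than control by a log2 difference of -0.27 (adjusted p = 0.00067), so neither ACO1 call against control was the same under both scalings. Over replicates 1 and 2 alone EX527 against control was 0.21 (limma, adjusted p = 0.057), and over replicates 3 and 4 alone 0.13 (adjusted p = 0.24). The intensities before normalization were 3191 to 3427 in control, 3423 to 3451 with EX527 and 2514 to 2889 with MC2494. MC2494 against EX527 passed the threshold in 10 of 25 alternatives, among them those without replicate 3 of EX527 (log2 difference -0.15, limma adjusted p = 0.028) and without replicate 4 of MC2494 (-0.15, adjusted p = 0.027).

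**Figure D3:**
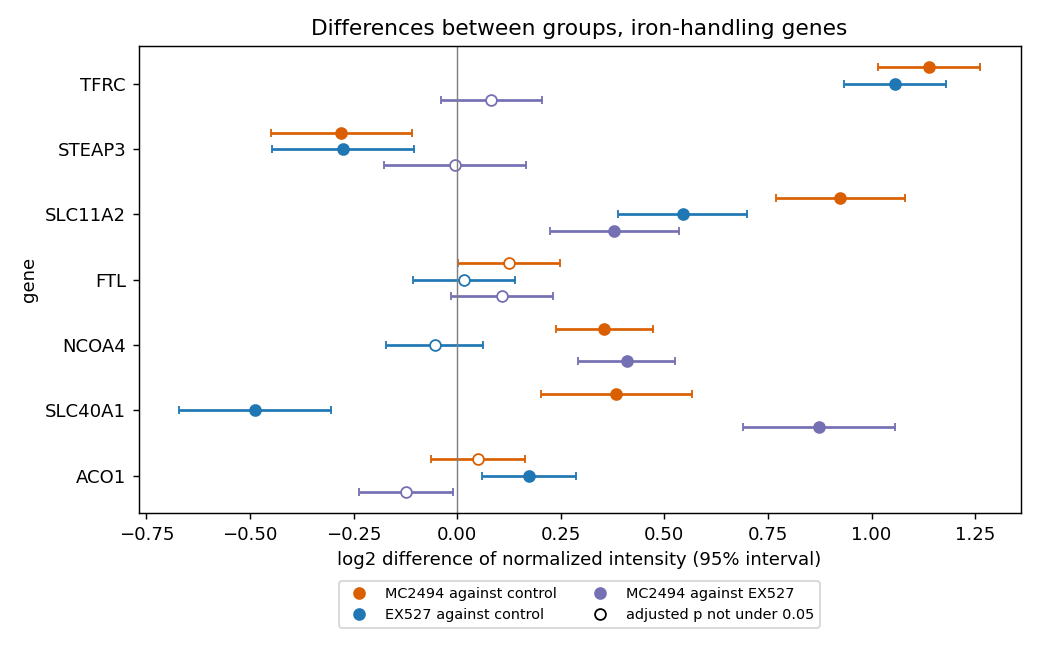
Log2 difference ± 95% interval of the 7 detected member probes for MC2494 against control, EX527 against control and MC2494 against EX527, filled where the limma adjusted p was under 0.05. TFRC is near 1 log2 unit above control with both compounds, and SLC40A1 has the largest difference between the compounds, 0.87.

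With MC2494, 5 of the 7 detected member probes passed the threshold, 4 higher (TFRC, SLC11A2, NCOA4, SLC40A1) and 1 lower (STEAP3), where 70.8% of all 13174 probes passed, 35.4% higher and 35.3% lower. The same 5 had no overlap between the groups, against 64% of all probes. With EX527, 5 of 7 passed, 3 higher (TFRC, SLC11A2, ACO1) and 2 lower (STEAP3, SLC40A1), where 54.3% of all probes passed, 24.3% higher and 30% lower, and 5 did not overlap against 49.7%. Between the compounds 3 of 7 passed, all higher with MC2494 (SLC11A2, NCOA4, SLC40A1), where 60.4% of all probes passed, 31.4% higher and 29% lower, and 3 did not overlap against 54.2%. With so large a share of all probes past the threshold, these counts over 7 probes set the members apart in no comparison. The median log2 difference over the 7 probes was 0.36 for MC2494, 0.02 for EX527 and 0.11 between the compounds, against -0.01, -0.04 and 0.01 over all probes. The 0.36 is the value of NCOA4, the middle probe of the 7 with MC2494. With median scaling NCOA4 was again the middle probe, at 0.02, against -0.08 over all probes. Both treated groups were set against the same 4 control arrays. Of all probes that passed between the compounds, 52.0% were higher with MC2494 under quantile normalization, 41.2% under median scaling and 35.2% with no scaling.

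Other genes of iron and haem handling were taken from 6 wider lists, each gene by its brightest detected probe. By that count 72.1% of 9956 genes passed with MC2494, 37.3% higher and 34.8% lower, 56% with EX527, 25.6% higher and 30.4% lower, and 61.5% between the compounds, 32.8% higher with MC2494 and 28.7% lower. The median log2 difference over all genes was 0.01, -0.04 and 0.02. The list counts and medians below are descriptions against these values.

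The list of genes that control the iron regulatory proteins or carry iron-responsive elements also holds the hypoxia factor gene HIF1A. Of the 11 listed genes, 7 were measured, and 5 were higher with MC2494 and 0 lower, with a median log2 difference of 0.25. With median scaling 3 were higher and 2 lower, with a median of 0.08. EPAS1, which encodes HIF2A and whose transcript carries an iron-responsive element, had the largest difference. Its log2 levels were 8.35, 8.22, 8.29 and 8.29 in control, 8.72, 8.60, 8.76 and 8.77 with EX527 and 10.19, 10.08, 10.21 and 10.22 with MC2494. The 3 groups were apart. EPAS1 was 3.69-fold higher with MC2494 (log2 difference 1.89 ± 0.06, limma adjusted p = 3.6e-12) and 1.34-fold higher with EX527 (0.42 ± 0.06, adjusted p = 2.9e-05). HIF1A, the hypoxia factor subunit related to it, was higher by 0.77 with MC2494 and by 0.27 with EX527, the latter with an adjusted p of 0.032 in limma that held in 17 of 25 alternatives and was lost without replicate 1, 2 or 3 of EX527 or replicate 2 or 4 of control. A further HIF1A probe was higher by 0.91 with MC2494 and by 0.53 with EX527 (limma adjusted p = 1.8e-05 and 0.0029). With EX527, 3 of the 7 were higher and 0 lower, with a median of 0.11, and they included FBXL5, the iron-sensing ubiquitin ligase subunit that degrades IREB2, at 0.22 ± 0.05 (limma, adjusted p = 0.003). FBXL5 was also higher with MC2494, by 0.14 ± 0.05 (limma, adjusted p = 0.033), a call held in 14 of 25 alternatives and lost without replicate 1, 3 or 4 of MC2494 or replicate 1, 2 or 4 of control. A further FBXL5 probe gave 0.26 with EX527, which did not pass (limma adjusted p = 0.12), and 0.52 with MC2494 (adjusted p = 0.003). SKP1, a partner of FBXL5 in that ligase, was higher by 0.34 with MC2494 and by 0.31 with MC2494 than with EX527, and neither passed under median scaling (limma adjusted p = 0.41 and 0.17). Between the compounds 3 of 7 were higher and 0 lower, with a median of 0.14, led by EPAS1 at 1.46 and HIF1A at 0.50, whereas with median scaling 2 were higher and 3 lower, with a median of 0.09.

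In the list of other iron import, reduction and export genes, 9 of 24 were measured, with 4 higher and 1 lower with MC2494, 5 higher and 0 lower with EX527, and 3 higher and 3 lower between the compounds. The medians were 0.13, 0.19 and -0.02. With median scaling the counts were 4 higher and 2 lower, 4 and 0, and 3 and 4. TF, transferrin itself, was not well above background on any control or EX527 array and was detected on all 4 MC2494 arrays, with log2 levels of 6.14, 5.92, 6.40 and 6.49. Its mean was at least 2.08-fold that in control and at least 2.09-fold that with EX527. TF passed the detection filter only through the MC2494 arrays, where it is high, so no p is given, and without it 3 of 8 genes were higher and 1 lower with MC2494, and 2 higher and 3 lower between the compounds. TF is mainly a liver product, and ALB and HAMP, also of hepatocytes, were detected on no array. Of the hepatocyte, epithelial and fibroblast markers 2 of 11 were detected, TF itself and EPCAM. The sum of these 2 was 140 to 149 in control, 152 to 162 with EX527 and 194 to 220 with MC2494. It counts TF again and is no separate measure of such cells. TFR2, the second transferrin receptor, was not well above background on any MC2494 array and was detected on 3 of 4 control and 4 of 4 EX527 arrays. It was at least 1.44-fold lower with MC2494 than with EX527 and at least 1.32-fold lower than in control. The fitted log2 differences were -0.68 and -0.55 (limma adjusted p = 0.00052 and 0.002). Those p-values belong to the fitted differences, which use MC2494 signals near background, and not to the bounds. The MC2494 and control arrays overlapped, with 5.09 the highest with MC2494 and 5.02 the lowest in control.

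RAB11FIP2 and EXOC6, which act in endosome recycling and in the vesicle traffic that returns the transferrin receptor to the surface, were higher with both compounds. RAB11FIP2 was higher by 1.58 ± 0.08 with MC2494 (limma adjusted p = 7.2e-10) and by 1.03 ± 0.08 with EX527 (adjusted p = 2.9e-07), and by 0.55 with MC2494 over EX527. EXOC6 was higher by 0.93 ± 0.07 with MC2494 (limma adjusted p = 3e-08) and by 0.81 ± 0.07 with EX527 (adjusted p = 5.4e-07). MCOLN1, an endolysosomal cation channel that passes iron, was higher by 0.38 with EX527 (limma adjusted p = 0.00015) and gave 0.13 with MC2494, which did not pass (adjusted p = 0.066).

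**Figure D4:**
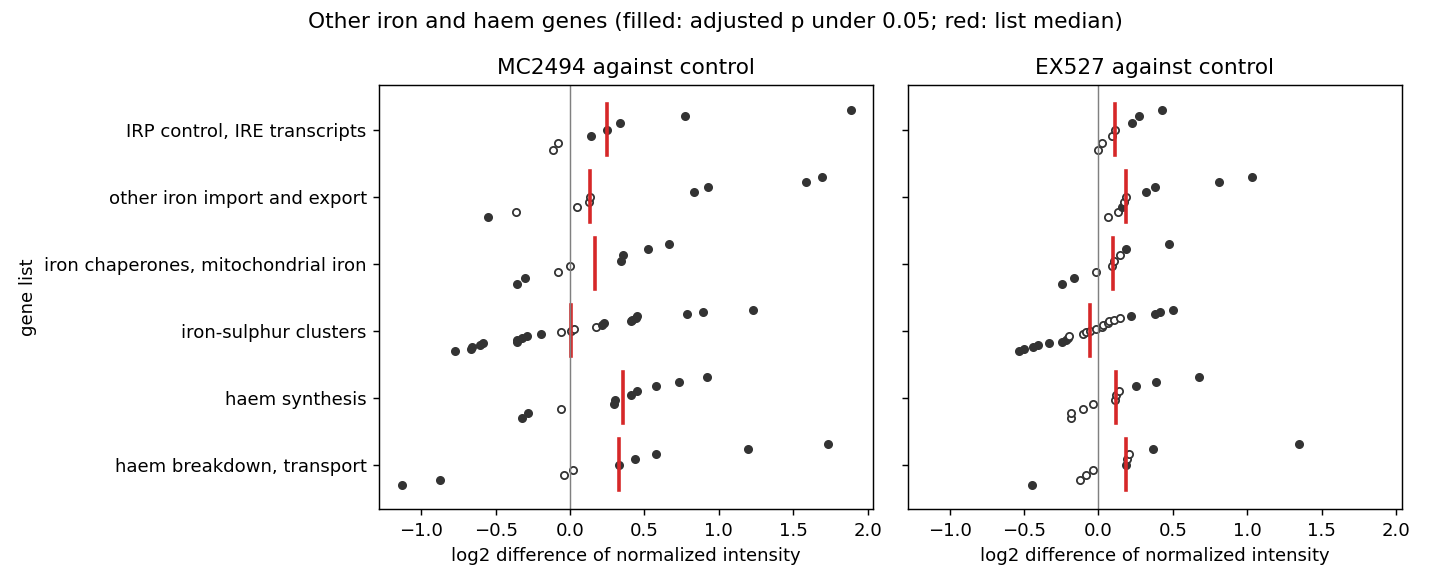
Log2 difference of each measured gene of the 6 wider lists for MC2494 and for EX527 against control, filled where the limma adjusted p was under 0.05, with the list's median as a red bar. The points of TF and TFR2 are fitted values, whose folds have only a bound where a group was not above background; EPAS1 and HMOX1 lie farthest above control with MC2494.

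In the list of iron chaperones, ferritin turnover and mitochondrial iron, 8 of 11 genes were measured, with 4 higher and 2 lower with MC2494, 2 higher and 2 lower with EX527, and 3 higher and 1 lower between the compounds. The median log2 difference with MC2494 was 0.17, and with median scaling it was -0.08. The counts with median scaling were 2 higher and 4 lower with MC2494, 1 and 3 with EX527, and 2 and 3 between the compounds, so the balance turned to lower in each. SLC25A37, or mitoferrin 1, which imports iron into mitochondria, was higher by 0.67 ± 0.06 with MC2494 (limma adjusted p = 1.7e-07) and gave 0.15 with EX527 (adjusted p = 0.051). That EX527 difference passed the threshold in 13 of 25 alternatives. CISD2, an iron-sulphur protein of the endoplasmic reticulum and outer mitochondrial membranes, was higher by 0.53 with MC2494 and 0.47 with EX527. NUBP1, a cytosolic cluster assembly protein that 2 of the lists hold, fell by 0.36 and by 0.25, the latter not passing with no scaling between arrays (limma adjusted p = 0.097). CISD1, or mitoNEET, was higher by 0.38 with MC2494 than with EX527, which with no scaling was 0.16 (limma adjusted p = 0.079), and by 0.36 than in control, which with median scaling was 0.02 (adjusted p = 0.81). PCBP2, an iron chaperone that loads ferritin, was higher by 0.18 with EX527 (limma, adjusted p = 0.0049), and this turned to -0.04 under median scaling (adjusted p = 0.63). The other detected PCBP2 probe gave 0.04 with EX527, which did not pass (limma adjusted p = 0.59). With MC2494 PCBP2 was higher than control by 0.34, and by 0.29 at the other probe, but gave 0.03 under median scaling (limma adjusted p = 0.72). Its difference between the compounds was 0.16, and 0.06 under median scaling (limma, adjusted p = 0.39).

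Of the 28 genes of iron-sulphur cluster assembly 23 were measured, with 9 higher and 10 lower with MC2494, 4 higher and 8 lower with EX527, and 8 higher and 8 lower between the compounds. The medians were 0.01, -0.05 and 0.08. With median scaling the counts were 6 higher and 11 lower, 4 and 11, and 8 and 9. FDX1, a mitochondrial ferredoxin, was higher by 1.23 ± 0.13 with MC2494 (limma adjusted p = 1.1e-06) and by 0.50 ± 0.13 with EX527 (adjusted p = 0.0052). CIAO1, of the cytosolic targeting complex, and NFU1, a late mitochondrial carrier of clusters, were higher by 0.89 and 0.79 with MC2494, and with EX527 gave 0.07 and 0.10, which did not pass. CIAPIN1, the electron carrier of the cytosolic pathway, and HSCB, the cochaperone of mitochondrial assembly, fell by 0.53 and 0.50 with EX527. With MC2494 CIAPIN1 fell by 0.77 (limma adjusted p = 1.7e-08), while HSCB gave 0.01 (adjusted p = 0.91). BOLA3 was lower with MC2494 than with EX527 by a log2 difference of -0.73 and than in control by -0.66, and EX527 against control gave 0.07 (limma adjusted p = 0.29).

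Haem synthesis genes were measured for 10 of 13, with 7 higher and 2 lower with MC2494, 3 higher and 0 lower with EX527, and 5 higher and 4 lower between the compounds. The medians were 0.36, 0.11 and 0.12, and with median scaling the first was 0.16, with counts of 5 higher and 3 lower, 2 and 0, and 4 and 4. ALAS1, the first and rate-limiting enzyme of haem synthesis outside red cells, had log2 levels of 7.15, 7.21, 7.05 and 6.93 in control, 7.16, 6.72, 6.85 and 6.89 with EX527 and 8.02, 8.15, 7.96 and 7.90 with MC2494. The MC2494 arrays were above all others and the other groups overlapped. ALAS1 was higher by 0.92 ± 0.09 with MC2494 (limma adjusted p = 6e-07) and by 0.59 at its other probe. With EX527 it gave -0.18 (limma adjusted p = 0.11), and the other probe was lower by a log2 difference of -0.38 (adjusted p = 0.018), though its groups overlapped. ALAD, the next enzyme, was higher by 0.73 ± 0.06 with MC2494 (limma adjusted p = 9.5e-08) and gave -0.04 with EX527 (adjusted p = 0.61). TMEM14C, a mitochondrial carrier of haem precursors, was higher by 0.58 with MC2494 and by 0.25 with EX527, the latter not passing under median scaling (limma adjusted p = 0.33). ABCB10, a mitochondrial inner membrane transporter needed for haem synthesis, and UROS, the fourth enzyme of the pathway, were higher with EX527 by 0.68 and 0.39. Both were higher with MC2494 too, ABCB10 by 0.30 (limma adjusted p = 0.0056) and UROS by 0.45 (adjusted p = 1.5e-05). That ABCB10 call held in 22 of 25 alternatives, and median scaling was among those where it was lost (limma adjusted p = 0.16). The UROS call with MC2494 held in 24 of 25. ABCB6, a porphyrin transporter, was higher by 0.60 with MC2494 than with EX527 and by 0.41 than in control, and EX527 against control gave -0.19 (limma adjusted p = 0.15).

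In haem breakdown and transport, 9 of 15 genes were measured, with 5 higher and 2 lower with MC2494, 3 higher and 1 lower with EX527, and 4 higher and 2 lower between the compounds. The medians were 0.33, 0.19 and 0.14, and with median scaling the first was 0.01, with counts of 4 higher and 4 lower, 2 and 1, and 2 and 2. HMOX1, haem oxygenase 1, which opens the haem ring and frees its iron, had log2 levels of 7.28, 7.44, 7.18 and 7.45 in control, 8.61, 8.67, 8.71 and 8.73 with EX527 and 9.06, 9.08, 8.99 and 9.13 with MC2494. The 3 groups did not overlap. HMOX1 was 3.32-fold higher with MC2494 (log2 difference 1.73 ± 0.07, limma adjusted p = 2.7e-11) and 2.54-fold higher with EX527 (1.34 ± 0.07, adjusted p = 3.7e-09). SLC48A1, which carries haem out of lysosomes, was higher by 1.20 ± 0.08 with MC2494 (limma adjusted p = 1.1e-08) and by 0.37 ± 0.08 with EX527 (adjusted p = 0.0019). FLVCR1, known as a haem exporter of the plasma membrane, had log2 levels of 7.96, 7.92, 8.00 and 7.98 in control, 7.54, 7.52, 7.50 and 7.52 with EX527 and 6.63, 6.67, 6.85 and 7.18 with MC2494. Its 3 groups did not overlap, in the order opposite to that of HMOX1. FLVCR1 fell by 1.13 ± 0.09 with MC2494 (limma adjusted p = 8.2e-08) and by 0.45 ± 0.09 with EX527 (adjusted p = 0.0011). The related FLVCR2 was lower with MC2494 than with EX527 by a log2 difference of -0.75 and than in control by -0.87, and EX527 against control gave -0.12 (limma adjusted p = 0.059).

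The genes whose levels followed each member most closely over the 12 arrays were found among about 4700 genes whose group means spanned at least 0.5 on the log2 scale. TFRC was nearest to PCMTD1 and SLTM, with Pearson's r of 0.996 and 0.995, and SLC11A2 to MLLT10 and ZYG11B, with 0.994 and 0.993. NCOA4 was nearest to PIN4P1 and AGO3, at 0.983 each, and SLC40A1 to NCOA5 and ABLIM1, at 0.970 and 0.969. FTL with FAM162A and MFF gave 0.940 and 0.904, STEAP3 with GFOD2 and TOMM22 0.908 and 0.905, and ACO1 with FER and SLFN13 0.907 and 0.893. The 12 arrays share 3 groups and 1 normalization, so any gene with a like order of the group means gives a high r.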

How the data were processed

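Total RNA of U937 cells, 3000 ng per array, was hybridised to 12 Illumina BeadChips, per the labels' protocols. The deposited table gives each probe's intensity on a linear scale, and its values show no normalization between arrays. The deposited headers also name a detection p-value for each. A second deposited table holds quantile-normalized log2 values made by the authors, used only as an alternative. The submitters' processing notes name limma, and sources used here name no scanner software or genome build. The 24526 probes were named through the platform annotation, in which 21834 carried 1 symbol, 0 several and 2692 none, and 21 named probes had no RefSeq entry and kept their symbol. All columns of sample values were used.

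Intensities were processed in R 4.3.3 with limma 3.58.1 and its function neqc, in which detection p-values set the background, the offset was 16, and quantile normalization on the log2 scale followed. Probes with a detection p under 0.05 on at least 4 arrays were kept, 13174 in all. One linear model with the 3 group means, by lmFit and eBayes, used all 12 arrays. It was tested on simulated normalized values in which few probes changed, which covers neither the normalization nor data where most probes change. The p-values were adjusted by Benjamini-Hochberg over all kept probes, with a threshold of 0.05. The median residual SD was 0.109 on the log2 scale, and precision is limited by the number of arrays. Where no array of a group detected a probe, its level there is only a bound. A fold given as "at least" sets the mean of the brighter group over a floor, which on each array of the dimmer group is the lowest signal of any detected probe or the probe's own signal if that is higher.

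The members and gene lists were chosen with earlier results of these data known. The text names all member probes and, from each wider list, up to 3 genes per comparison with the largest absolute log2 difference among those past the threshold, plus for each member the 2 genes with the highest correlation. Marker genes were taken from further lists. Alternatives covered the background correction, scaling, filter, probe choice, variance model, array weights, replicate block, arrays in the fit, threshold and each array left out, and splits by replicate number were added after seeing the data.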

Additional observations from a re-analysis of the deposited data

Results flagged for a closer look

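Among the 21 groups of 4 arrays formed by the 7 detected member probes, 3 had 1 array far from the others by Dixon's ratio of gap to range, where chance gives about 1 in 20. The 7 probes share the same arrays, so the 21 groups are not independent. TFRC on replicate 2 of MC2494 had a log2 level of 13.39 against 13.55 to 13.56 on the other MC2494 arrays, a ratio of 0.897. SLC11A2 on the same array had a log2 level of 9.569 against 9.89 to 9.92, a ratio of 0.922. NCOA4 on replicate 4 of control had a log2 level of 13.46 against 13.34 to 13.35, a ratio of 0.894. Replicate 2 of MC2494 was the lowest array of its group for 5 of the 7 member probes.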

How the results depend on the processing

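The count of member probes that passed stayed within 1.5 times its value of 5, 5 and 3 (MC2494 against control, EX527 against control, MC2494 against EX527) in all alternatives but 2: it was 5 for MC2494 against EX527 with an intensity trend and robust eBayes, and 3 for EX527 against control over replicates 1 and 2 alone. Leaving out 1 array at a time gave 5 to 6, 5 to 5 and 3 to 4. The split of these calls by direction changed with the scaling. With median scaling 3 were higher and 2 lower with MC2494, and 2 higher and 4 lower with EX527. With no scaling the splits were 3 higher and 2 lower, and 2 higher and 3 lower. Between the compounds both scalings gave 3 higher and 1 lower. Over all probes 9326, 7160 and 7957 passed, and the alternatives gave 7222 to 9625, 5095 to 7465 and 6168 to 8155. TFRC and SLC11A2 against control passed in all 25 alternatives. Directions turned where a side passed the threshold for ACO1 with MC2494, at -0.27 under median scaling and -0.27 with no scaling, and under median scaling for FTL at -0.20 and PCBP2 at -0.036, both with EX527. Among member differences that passed on neither side, the sign also turned under both scalings for FTL with MC2494 (-0.05 each) and TFRC between the compounds (-0.06 and -0.10), with no scaling for FTL with EX527 (-0.16), and in other alternatives for FTL with EX527 and STEAP3 between the compounds, whose reported values are 0.02 and -0.00. The cause was not tested.

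The deviations of same-numbered arrays in different groups had correlations from -0.04 to 0.18, with 9 of 12 above 0. Correlations this weak do not settle whether the numbers pair samples. With the replicate block the member counts were 6, 5 and 3, the added probe being FTL with MC2494. Arrays of replicates 1 and 2, or of 3 and 4, in different groups deviated together in 21 of 24 pairs, against 4 of 24 otherwise, and the labels name no batch. Deviations from a group mean sum to 0 within the group, so these 2 counts are not independent. Fits within these pairs of replicates, chosen after seeing the data, have fewer arrays. Besides the losses given in the report, calls lost over replicates 1 and 2 included those of HIF1A, FBXL5, FDX1 and PCBP2 with EX527. The calls of NUBP1, SKP1 and ABCB10 with MC2494 against control were also lost there. Over replicates 3 and 4 the losses included the EX527 calls of NUBP1, PCBP2, SLC48A1 and TMEM14C. The differences of ABCB6 and TFR2 between MC2494 and control were lost there too. Probes near background, such as SLC11A1, allow no fold.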
